A study of Mus musculus with 48 samples.

Results

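Matrix metalloproteinases, their tissue inhibitors and the related ADAMTS, ADAMTS-like and LOXL genes were read in mouse liver spheroids that had been engrafted on the iris. They were also read in iris, liver, isolated hepatocytes and cultured spheroids. The genes were taken by name: of 20702 rows in the table of iris-corrected values, 37 carry a symbol that begins with *Mmp*, *Timp*, *Adamts*, *Adamtsl* or *Loxl* followed by a number. They are 12 *Mmp*, 4 *Timp*, 12 *Adamts*, 5 *Adamtsl* and 4 *Loxl* genes. That table holds genes that average above 1 TPM over 13 samples, namely the 5 corrected explants as deposited and the livers, hepatocytes and spheroids. Irises are not in this average, so a gene whose RNA lies in iris alone has a row only if the correction leaves enough in the explants. *Adamts16* has a row, with a mean of 46.4 TPM in iris, 0.473 in liver, 0.399 in hepatocytes and 0.513 in spheroids. The choice of members thus bears on every count against iris. A further 18 genes with such names were counted but have no row in that table. The highest of these was *Mmp16*, at a mean of 7.85 TPM (counts scaled to gene length and library total) in iris and 5.57 in explants.

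RNA was measured in 5 groups of wild-type albino mice, for which the deposited labels give the strain C57BL/6N and the study's methods the albino strain B6(Cg)-Tyr c-2J/J. The 5 explants were dissected 2 months after transplantation and hold an engrafted spheroid together with the iris around it, so no explant is pure graft. The other groups were 3 irises of eyes without a graft, 3 livers of donor mice, 3 preparations of primary hepatocytes obtained from donor livers by collagenase perfusion, and 2 samples of spheroids that stayed in culture and were never engrafted. Explants are numbered 1, 2, 4, 5 and 6. Each of the 16 samples was sequenced as 3 technical libraries by Smart-seq3, which were summed, to between 2718518 and 6789648 counts per sample. The study's methods call the samples biological replicates, but the labels tie none of them to an animal, so p-values measure the spread between these samples only.

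Extracellular matrix is remodelled by opposing enzymes. Matrix metalloproteinases (MMPs) are secreted or membrane-bound zinc proteinases that cut collagens, elastin, laminin and other matrix proteins, and tissue inhibitors of metalloproteinases (TIMPs) occupy their active site. ADAMTS proteinases cut proteoglycans such as versican and aggrecan or process procollagen, whereas ADAMTS-like proteins have no proteinase domain and bind to microfibrils. LOXL enzymes, relatives of lysyl oxidase, crosslink collagen and elastin. In liver, stellate cells and fibroblasts are known as sources of MMP2, TIMP1 and collagens, and macrophages as a source of MMP12 and MMP13.

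The 5 members *Mmp13*, *Mmp12*, *Mmp3*, *Mmp27* and *Mmp7* lie within 427 kb of chromosome 9, from 7272514 to 7699585 (GRCm38). They belong to the well-known cluster of secreted MMP genes. Cluster genes that are not members, such as *Mmp1b*, which overlaps *Mmp12*, are left out of the cluster counts below. The letters TGANTCA, where N is any base, take in the AP-1 sites TGACTCA and TGAGTCA but are wider than these. They were looked for in the 250 bases before each start site that RefSeq gives for GRCm38.p6. Both strands were covered, since the pattern reads the same on each. The pattern stands in 4 of the 5 cluster members, in 0 of 19 other member genes that have an entry, and in 7.82% of all 27025 genes with an entry. Some genes have several entries: the pattern stands in 4 of the 7 entries of the cluster members and in 6.75% of all 32851 entries. For *Mmp12* and *Mmp7* the start printed is the one that holds it. The match is one of letters, and 13 members have no entry. The 100 bases before the start are printed for the 4 cluster members that hold the pattern, to show where it stands. All lie on the plus strand of chromosome 9, and capitals mark the pattern.
Mmp13, chr9:7272414-7272513: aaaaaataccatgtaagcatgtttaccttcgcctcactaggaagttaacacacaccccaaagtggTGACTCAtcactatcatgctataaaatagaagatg
Mmp12, chr9:7347274-7347373: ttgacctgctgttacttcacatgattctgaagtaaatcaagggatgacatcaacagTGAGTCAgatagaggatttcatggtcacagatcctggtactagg
Mmp3, chr9:7445722-7445821: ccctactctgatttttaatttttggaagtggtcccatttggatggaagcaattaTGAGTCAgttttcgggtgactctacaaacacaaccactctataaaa
Mmp7, chr9:7691990-7692089: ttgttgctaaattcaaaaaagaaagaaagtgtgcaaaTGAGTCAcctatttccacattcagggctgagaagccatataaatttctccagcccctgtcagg

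Several properties of the samples bear on all results. The iris share of explants 1, 2, 4, 5 and 6, solved from the deposited tables, was 82%, 68%, 81%, 72% and 59%. The summed TPM of 8 hepatocyte markers was 12739 to 13115 in livers, 5077 to 6929 in explants and 1592 to 1883 in irises, so RNA of all 8 markers was also counted in irises without a graft. Macrophage markers (10 genes) summed to 1079 to 3002 TPM in explants, 768 to 821 in irises, 544 to 1187 in livers, 156 to 285 in hepatocytes and 574 to 720 in spheroids. Liver 1 stood apart from livers 2 and 3: of 8 fibroblast markers the sum was 1310 TPM in liver 1, 445 in liver 2 and 508 in liver 3. Results that rest on livers are therefore given with and without liver 1. Reads were counted without strand, so a member that shares exons with a gene on the other strand is uncertain. This touches *Mmp19*, where 23.1% of exonic bases are shared with *Tmem198b*, *Timp3* (21.3% with *Syn3*), *Mmp24* (13.6% with *BC029722*) and *Loxl3* (11.6% with *Htra2*). *Timp1*, *Timp3* and *Timp4* each lie inside a synapsin gene.

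The iris and the explants that contain it carried far more RNA of these genes than liver, hepatocytes or spheroids. All 37 members together summed to 1464 to 1920 TPM in explants and 1739 to 1822 in irises, against 228 to 493 in livers, 161 to 171 in hepatocytes and 310 to 316 in spheroids. A mean of at least 10 TPM was reached by 18 members in explants, 18 in iris, 9 in liver, 3 in hepatocytes and 8 in spheroids. The group with the highest mean was explant for 15 members, iris for 11, liver for 6, spheroids for 4 (*Mmp12*, *Mmp13*, *Mmp27* and *Timp4*) and hepatocytes for 1 (*Mmp19*).

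The leading genes differed between the tissues. In iris, *Timp3* came first at 558 ± 21.1 TPM (SD, n = 3), followed by *Adamts1* at 285 ± 38.4 and *Timp2* at 219 ± 11.2. In explants the order of these 3 genes was *Timp3* at 389 ± 50.8 TPM (SD, n = 5), *Adamts1* at 379 ± 91.2, which lies within the SD of *Timp3*, and *Timp2* at 168 ± 15.8. In liver *Mmp19* led at 78.9 ± 2.08 TPM (SD, n = 3), ahead of *Timp3* at 33.03 ± 10.3 and *Mmp15* at 27.2 ± 8.82, which do not differ beyond their spread. *Mmp19* also led in hepatocytes, at 88.7 ± 10.3 TPM (SD, n = 3), far above *Mmp15* at 15.1 ± 3.30 and *Timp3* at 11.9 ± 2.95. In spheroids *Mmp19* stood at 73.8 ± 10.1 TPM (SD, n = 2), *Mmp12* at 53.9 ± 17.99 and *Adamts1* at 48.4 ± 6.54. Iris thus had 2 inhibitor genes among its leading 3, and spheroids had none.

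**Figure D1:**
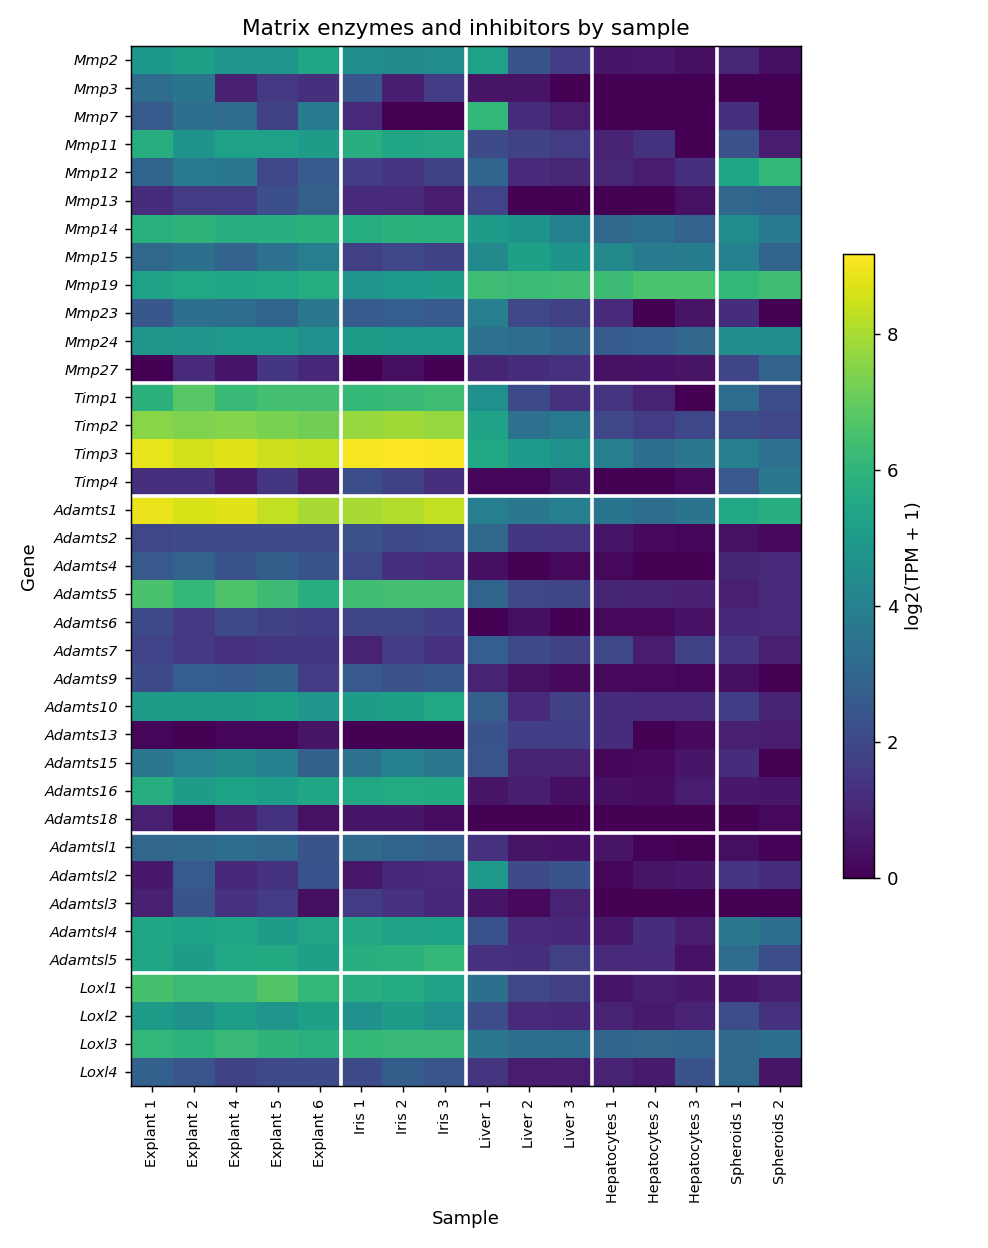
Each row is a member gene, ordered by family, and each column a sample, with explants at the left, then irises, livers, hepatocytes and spheroids; colour gives log2(TPM + 1). Iris and explant columns are bright for *Timp1*, *Timp2*, *Timp3*, *Adamts1*, *Adamts5* and *Loxl1*, while *Mmp19* is bright in every column and *Mmp12* is brightest in the 2 spheroid columns.

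Of the 4 TIMPs, the inhibitors of the group, *Timp1*, *Timp2* and *Timp3* had more RNA in every iris than in any liver, hepatocyte or spheroid sample. *Timp3*, whose product stays bound to matrix (chromosome 10, 86300372 to 86349506), had 453, 373, 430, 360 and 331 TPM in explants 1, 2, 4, 5 and 6 and 553, 581 and 540 in irises 1 to 3. It had 44.5, 29.9 and 24.7 TPM in livers, 14.96, 9.07 and 11.6 in hepatocytes and 14.7 and 9.68 in spheroids. Every explant lay below every iris and above every liver. *Timp2*, which besides inhibiting MMPs takes part in the activation of pro-MMP2 (chromosome 11, 118301069 to 118355740), had 189, 167, 177, 163 and 147 TPM in explants, 218, 231 and 209 in irises, and 37.7, 10.1 and 13.03 in livers. In hepatocytes *Timp2* was at 2.88, 2.04 and 3.00 TPM, and in spheroids at 3.51 and 2.89. Liver 1 was the highest liver for both genes.

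*Timp1*, an inducible inhibitor (chromosome X, 20870166 to 20874735), had 58.8, 111, 72.5, 84.9 and 85.1 TPM in explants and 68.9, 72.3 and 79.2 in irises. Livers 1 to 3 had 23.5, 3.17 and 1.49 TPM of *Timp1*, hepatocytes 1.58, 0.895 and 0, and spheroids 8.56 and 3.63. Explants and irises overlapped, and both lay above all other samples. *Timp4* (chromosome 6, 115241892 to 115252205) had another pattern, with 4.90 and 11.9 TPM in spheroids, 3.67, 2.40 and 1.34 in irises and 1.39, 1.39, 0.579, 1.74 and 0.568 in explants. It was close to 0 in livers, at 0.118, 0.119 and 0.447 TPM, and was counted in 1 of 3 hepatocyte preparations, at 0.153. The TPM sum of the 4 inhibitors divided by that of the 12 MMPs was 4.17 to 4.60 in irises, 2.18 to 3.00 in explants, 0.268 to 0.387 in livers, 0.0963 to 0.173 in hepatocytes and 0.139 to 0.173 in spheroids. These ranges overlap only between hepatocytes and spheroids.

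Of the crosslinking enzymes, *Loxl1*, which acts on elastin (chromosome 9, 58287723 to 58313212), had 89.5, 76.0, 75.3, 103 and 67.2 TPM in explants 1, 2, 4, 5 and 6 and 52.9, 49.2 and 38.5 in irises. Livers had 9.39, 2.95 and 2.37 TPM of *Loxl1*, hepatocytes 0.419, 0.714 and 0.539, and spheroids 0.455 and 0.723. All 5 explants exceeded all irises, and irises exceeded all samples of liver origin. *Loxl2*, a crosslinker of collagen IV (chromosome 14, 69609068 to 69695834), had 31.5, 24.8, 34.2, 26.6 and 35.2 TPM in explants and 24.2, 33 and 24.2 in irises. In livers *Loxl2* was at 3.48, 1.17 and 1.10 TPM, in hepatocytes at 0.907, 0.588 and 0.832, and in spheroids at 3.52 and 1.49. Explants and irises overlapped in *Loxl2*.

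*Loxl3* (chromosome 6, 83034173 to 83052562) had 67.5, 59.9, 72.0, 62.3 and 55.9 TPM in explants and 68.3, 74.0 and 72.1 in irises, and 6.997 to 11.5 in the 8 samples of livers, hepatocytes and spheroids. *Loxl4* (chromosome 19, 42593982 to 42612813) was low everywhere, with 6.07, 4.37, 2.55, 3.05 and 3.29 TPM in explants, 3.28, 5.48 and 4.32 in irises and 1.65, 0.668 and 0.626 in livers. Hepatocytes had 0.831, 0.566 and 4.06 TPM of *Loxl4*, and spheroids 7.40 and 0.382. For *Loxl4* the 2 spheroid samples spanned the values of every other group.

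Whether a graft adds RNA of these genes to the iris was asked by testing explants against irises. In edgeR's quasi-likelihood test 34 of the 37 members had enough counts, and calls needed an adjusted p (Benjamini-Hochberg, over all genes) below 0.05 with a change of more than 1 on the log2 scale. The graft-bearing tissue was higher in 4 members (*Mmp7*, *Mmp12*, *Mmp15* and *Adamts4*), where 6.16% of all 16764 genes tested were called higher. No member was called lower, where 0.316% of all genes were, and DESeq2 and limma-voom also called 0 lower. At an unadjusted p under 0.05, 9 members were higher and 4 lower. Both counts are set in part by the choice of members: among the 15434 tested genes with a row in the corrected table, 6.69% were called higher and 0.0713% lower, and among the 1330 without a row 0 and 3.16%. The median log2 fold change was 0.19 over the members tested and 0.03 over tested genes with a row. In bulk tissue such as this, fewer cells of a type and less RNA per cell cannot be told apart.

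*Mmp7*, matrilysin, an MMP of epithelia (chromosome 9, 7692090 to 7699585), had 5.10, 9.58, 8.22, 2.41 and 12.5 TPM in explants 1, 2, 4, 5 and 6 and 1.12, 0 and 0 in irises. The irises held 2 counts in all and the explants 82, a ratio per total count of 19.7 with an exact 95% interval of 5.27 to 165, which covers counting error only (adjusted p = 0.020 in edgeR). *Mmp12*, macrophage elastase (chromosome 9, 7344381 to 7369499), had 6.77, 12.7, 11.9, 2.84 and 5.29 TPM in explants and 2.16, 1.69 and 2.43 in irises. The log2 fold change of *Mmp12* was 2.00 ± 0.48 (SE), with an adjusted p of 0.027 in edgeR. Both genes were lowest in explant 5, and no explant overlapped the irises.

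*Mmp15*, a membrane-type MMP (chromosome 8, 95352268 to 95374293), had 7.64, 9.53, 6.51, 9.65 and 14.4 TPM in explants and 2.35, 2.95 and 2.51 in irises. Its log2 fold change was 1.99 ± 0.33 (SE), with an adjusted p of 0.0053 in edgeR. Explant 6, which has the lowest iris share, was the highest. *Adamts4*, a proteoglycanase (chromosome 1, 171250421 to 171260637), had 4.87, 6.59, 4.06, 5.52 and 4.17 TPM in explants and 2.99, 1.33 and 1.14 in irises, with a log2 fold change of 1.56 ± 0.35 (SE, adjusted p = 0.021 in edgeR). *Mmp15* alone among the 4 kept its call under every alternative tried. Without iris 1, iris 2 or iris 3 the number of members called higher was 2, 1 and 1.

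A smaller change passed the adjusted p but not the limit on the fold in 5 members. *Loxl1* was higher in explants by a log2 fold change of 0.90 ± 0.14 (SE, adjusted p = 0.0040 in edgeR) and *Mmp19* by 0.69 ± 0.14 (adjusted p = 0.014). *Timp3* was lower, at -0.43 ± 0.07 (SE, adjusted p = 0.0044 in edgeR), and so were *Timp2* at -0.29 ± 0.06 (adjusted p = 0.017) and *Adamtsl5*, a microfibril-binding protein, at -0.47 ± 0.12 (adjusted p = 0.029). *Adamts1*, the most abundant ADAMTS of the iris (chromosome 16, 85793827 to 85803113), had 487, 404, 428, 324 and 254 TPM in explants and 251, 277 and 327 in irises. Its log2 fold change of 0.50 ± 0.16 (SE) did not pass, with an adjusted p of 0.078 in edgeR. Explants 5 and 6 lay within the range of the irises for *Adamts1*, and explants 1, 2 and 4 lay above it.

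Macrophage markers moved with this comparison: 5 of 10 were called higher in explants (*Adgre1*, *Trem2*, *C1qa*, *C1qb* and *Lyz2*). Of 6 cholangiocyte markers, *Epcam* and *Cldn4* were called higher, but the sum of the 6 overlapped, at 874 to 1075 TPM in explants and 928 to 1038 in irises. Of 6 neutrophil markers 1 could be tested and was called higher (*Csf3r*). All 8 hepatocyte markers were called higher. All 4 lens markers tested were called lower in explants, their sum being 9.599 to 97.8 TPM in explants and 133 to 479 in irises. Cornea markers summed to 1477 TPM in explant 4, to 43.9 to 358 in the other explants and to 89.6 to 300 in irises. The part of these cells in the changes of *Mmp7*, *Mmp12*, *Mmp15* and *Adamts4* was not tested.

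Among genes that act with the members, some of the plasminogen system, which activates MMP zymogens, were called higher in explants. They include *F12* (log2 fold change 4.61), *Serpinf2* (4.29), *Plaur*, the urokinase receptor (4.25), and *Plg*, plasminogen itself (4.22). *F12*, *Serpinf2* and *Plg* are liver-made plasma proteins. Of 13 other matrix proteinases tested, *Adam8* (2.81) and *Ctss*, cathepsin S of macrophages (1.79), were called higher, and of 10 MMP regulators only *Tfpi2* (3.95). Of 17 matrix substrates, fibronectin *Fn1* (1.46) was called.

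**Figure D2:**
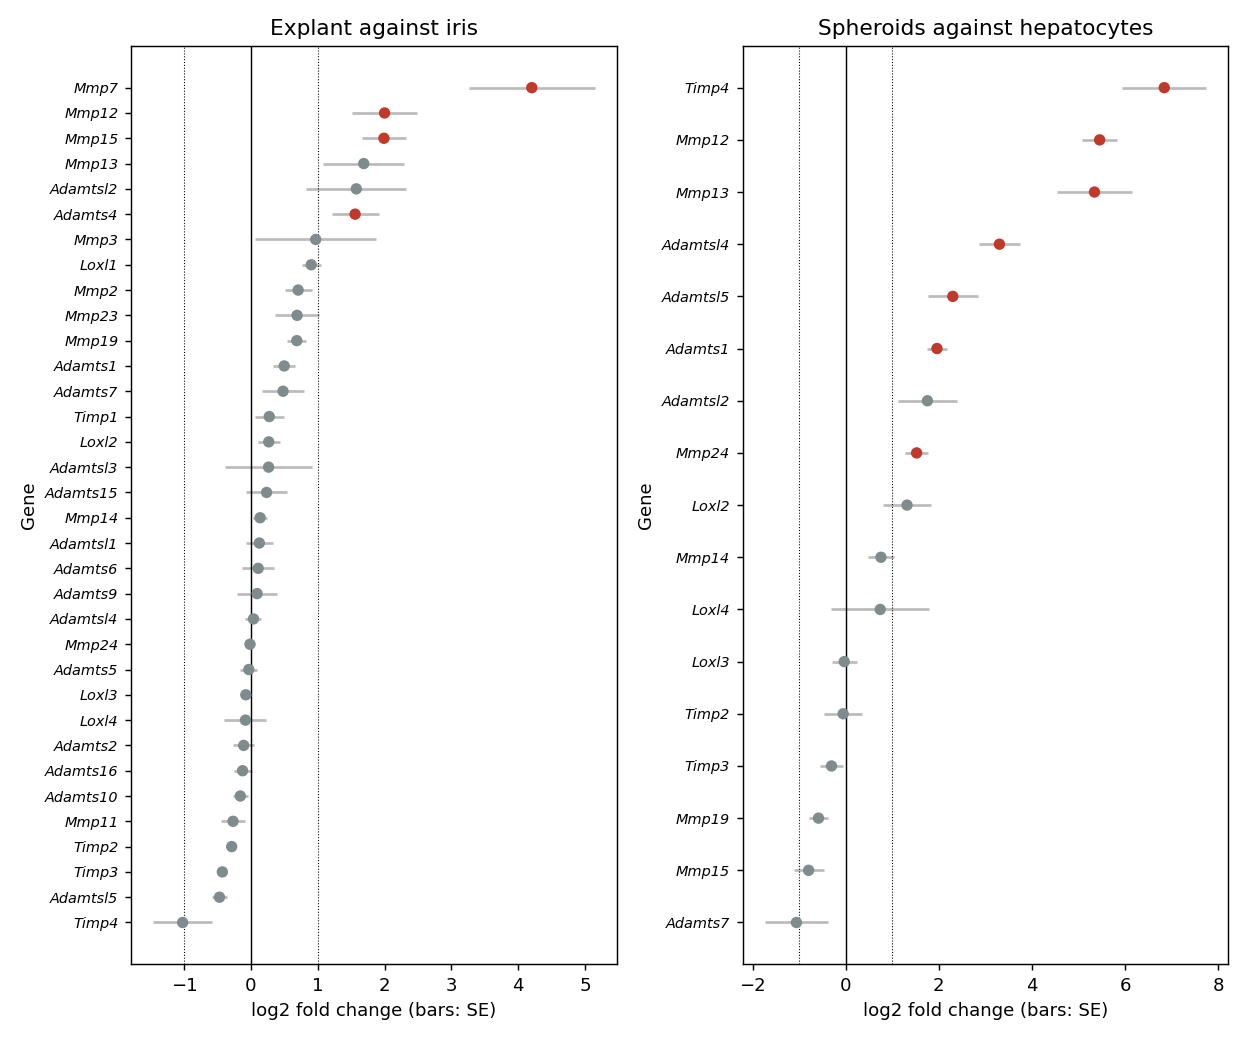
Points give the log2 fold change of each member tested, with its SE, for explants against irises at the left and spheroids against hepatocytes at the right; red marks called genes, and dotted lines stand at the limit of 1 in either direction. In explants 4 of 34 members are red, all to the right of 0, and in spheroids 7 of 17, also all to the right.

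**Figure D3:**
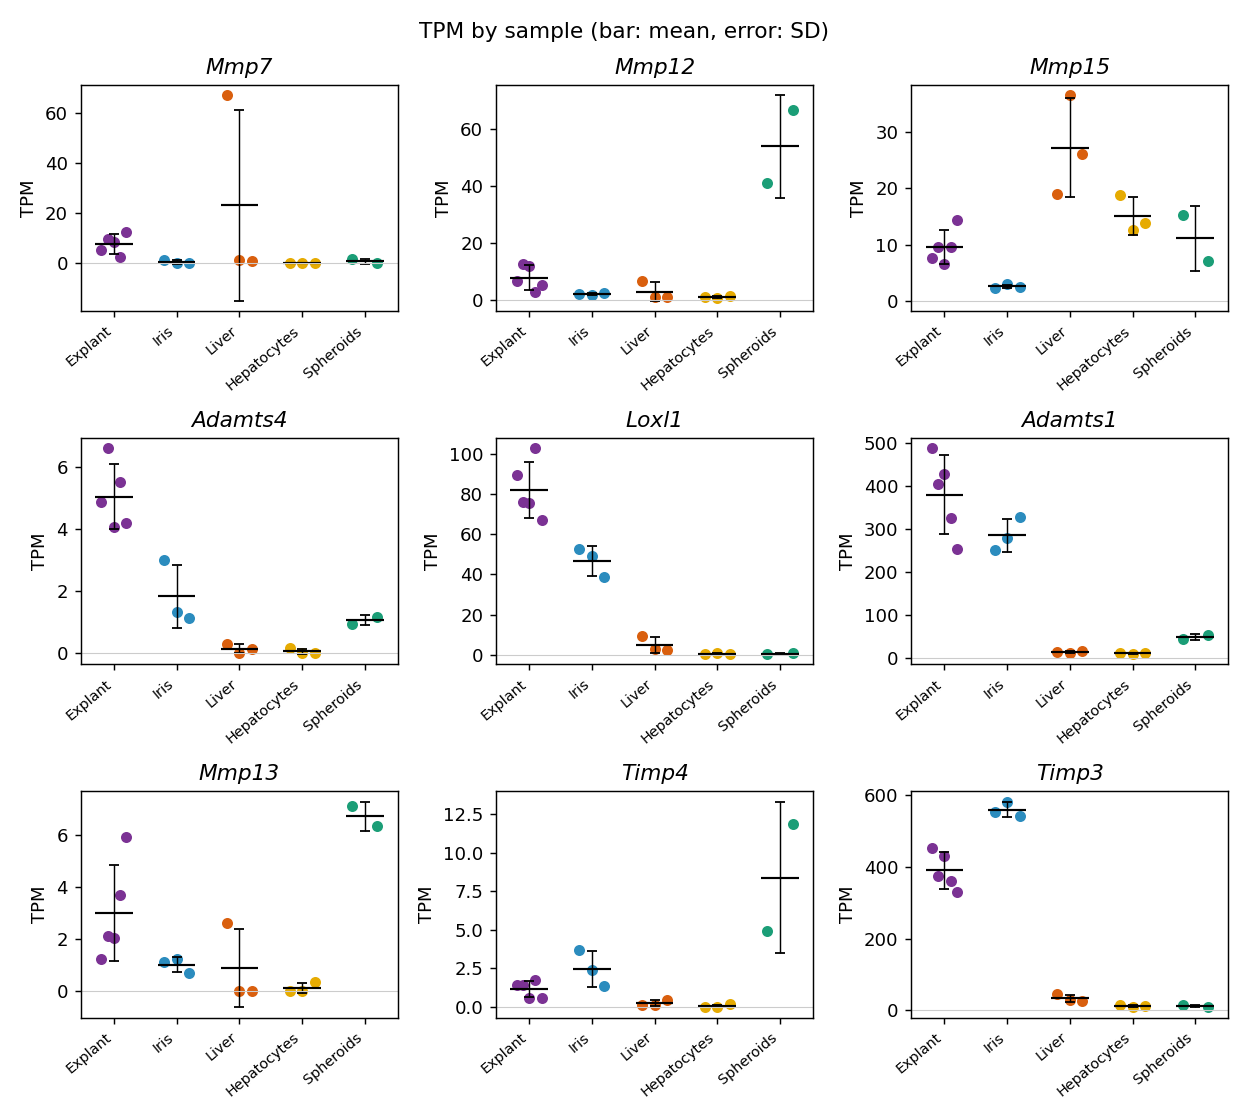
Each panel shows 1 gene, with a point per sample of TPM in the 5 groups, the mean as a line and the SD as an error bar. *Mmp7*, *Mmp12*, *Mmp15*, *Adamts4* and *Loxl1* have all 5 explants above all 3 irises, *Mmp13* and *Timp4* are highest in the 2 spheroid samples, and *Timp3* is highest in the 3 irises.

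The baseline of the host tissue and of the donor organ was compared in irises and livers. Most members had their RNA in the iris: of 31 tested, 19 were called higher in iris, where 29.8% of 15459 genes were, and 5 were called lower, where 22.1% of genes were. Among the 14549 tested genes with a row in the corrected table these shares were 26.1% and 23.5%. The median log2 fold change was 2.11 over the members and 0.02 over tested genes with a row. All 4 TIMPs and all 4 LOXL genes were called higher in iris, with log2 fold changes of 2.11 to 3.20 and of 1.26 to 2.95. *Loxl4* lost its call in 7 of 14 alternatives, with an adjusted p of up to 0.128, and *Timp1* in 1, without liver 2 (0.054 in edgeR); without liver 1 *Timp1* was higher in iris by 4.01 (log2). Of the 5 proteoglycanases, the 4 that were tested were higher. Without liver 1, 21 members were called higher and 5 lower. Scaling by library size alone moved the median of all genes by 0.68 (log2) and gave 21 higher and 5 lower.

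*Adamts16* (chromosome 13, 70727802 to 70841811) showed the largest rise, with 44.2, 48.2 and 46.9 TPM in irises and 0.408, 0.721 and 0.289 in livers, a log2 fold change of 5.72 ± 0.23 (SE, adjusted p = 5.73e-08 in edgeR). *Adamtsl5* had 53.1, 57.4 and 68.1 TPM in irises and 1.48, 1.34 and 2.37 in livers, a log2 fold change of 4.20 ± 0.22 (SE). *Adamts6*, with 2.74, 2.80 and 2.26 TPM in irises, was counted in 1 of 3 livers, with 2 counts against 61, a ratio per total count of 23.7 with an exact 95% interval of 6.28 to 200. The groups did not overlap for any of these 3 genes. *Adamts1*, at 14.3, 11.7 and 14.8 TPM in livers, was also higher in iris, by 3.50 ± 0.14 (log2, SE).

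The 5 members called lower in iris had their higher values in liver, among them a proteinase of plasma. *Adamts13*, which cuts von Willebrand factor and is made in liver (chromosome 2, 26973416 to 27009628), had 4.10, 2.29 and 2.28 TPM in livers and 0 counts in all 3 irises, against 62 in livers. It was at least 8.88-fold lower in iris, taking 3 counts per sample as the floor. *Mmp15* had 19.1, 36.6 and 26.1 TPM in livers, a log2 fold change of -4.28 ± 0.31 (SE, adjusted p = 2.87e-06 in edgeR), and *Mmp19* had 79.5, 76.6 and 80.6 TPM in livers and 26.7, 29.4 and 31.8 in irises, at -2.32 ± 0.11. *Adamtsl2*, which binds fibrillin (chromosome 2, 27079379 to 27108981), had 29.5, 3.35 and 4.04 TPM in livers and 0.526, 1.04 and 1.14 in irises, at -4.59 ± 0.89, and -2.97 ± 0.35 without liver 1. *Adamts7*, which cuts cartilage oligomeric matrix protein, was lower by a log2 fold change of -2.25 ± 0.41 (SE). *Mmp19*, *Mmp15* and *Adamts13* thus had their RNA mainly in liver, and none of these 3 was high in liver 1 alone.

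Liver 1 decided several values. Of 30 members with at least 10 counts in a liver, 18 were over 2-fold higher in liver 1 than in the mean of livers 2 and 3 and 0 were over 2-fold lower. Among all 13708 such genes 10.9% were higher by that measure and 3.65% lower. The median ratio of liver 1 to the other livers was 3.16 for the members and 1.08 for all genes. *Mmp7* had 67.2 TPM in liver 1 and 1.32 and 0.617 in livers 2 and 3. *Mmp2*, gelatinase A of stromal cells (chromosome 8, 92827328 to 92853417), had 36.9 TPM in liver 1 and 4.17 and 2.17 in the others. *Mmp23* had 14.3 TPM against 3.01 and 2.54. For these genes the difference within the liver group was as large as those between groups.

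Several marker sums were highest in liver 1, and others did not set it apart. In livers 1, 2 and 3 the stellate cell markers summed to 1316, 626 and 696 TPM, macrophage markers to 1187, 544 and 655, cholangiocyte markers to 564, 328 and 283, and mesothelium markers to 46.8, 5.15 and 25.4. In the same order, sinusoidal endothelial markers summed to 261, 281 and 341 TPM and endothelial markers to 74.9, 57.8 and 83.1. Smooth muscle markers summed to 165, 162 and 147 TPM and hepatocyte markers to 12802, 13115 and 12739. The part of any of these cell types in the values of *Mmp7*, *Mmp2* and *Timp1* was not tested. Without liver 1, *Mmp2* was called higher in iris than in liver, with a log2 fold change of 1.79 ± 0.30 (SE, adjusted p = 3.19e-04 in edgeR), against -0.28 ± 0.76 with all livers.

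**Figure D4:**
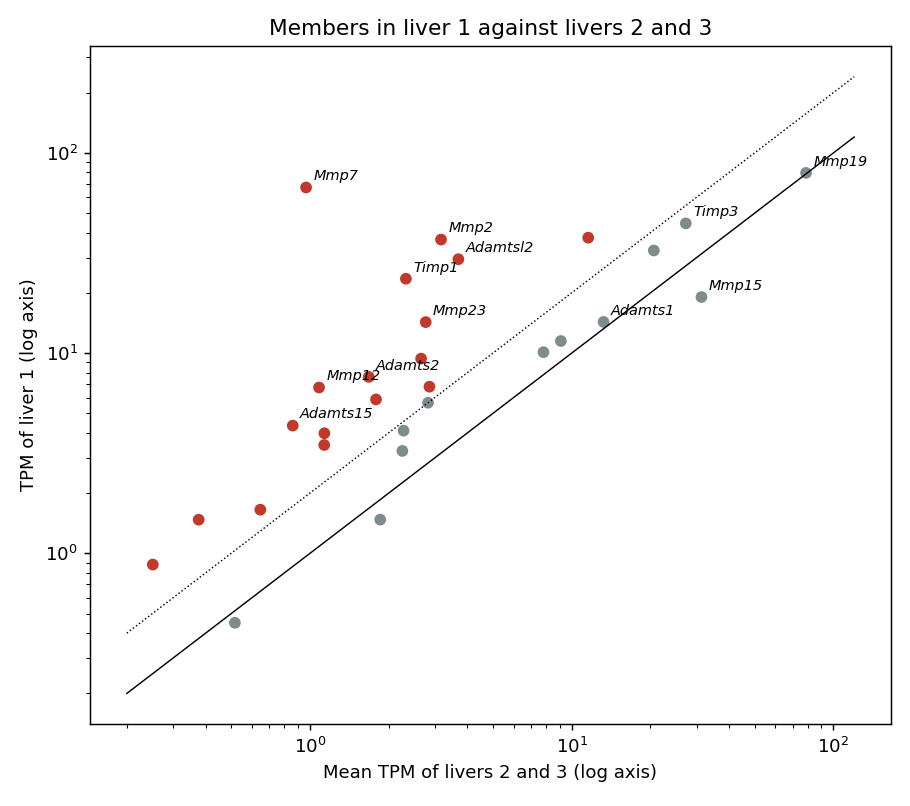
Each point is a member with at least 10 counts in a liver and above 0 in livers 2 and 3, with the mean TPM of livers 2 and 3 across and the TPM of liver 1 upward, both on log axes; the solid line marks equality and the dotted line a ratio of 2, and red points lie above it. *Mmp7* lies farthest from the line of equality, *Mmp2*, *Timp1*, *Adamtsl2*, *Mmp12* and *Mmp23* follow in that order, and *Mmp19* and *Adamts1* lie close to it.

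Hepatocyte preparations were compared with whole livers of donor mice, and the labels do not tie a preparation to a liver. Of the 37 members, 15 had enough counts to be tested between hepatocytes and livers, and 5 were called lower in hepatocytes, where 2.31% of 12236 genes were. Limma-voom called 0 lower, with adjusted p-values of 0.070 to 0.19 for these 5. None was called higher, where 0.409% of genes were; 0 were higher at an unadjusted p under 0.05, and DESeq2 and limma-voom also called 0. The median log2 fold change was -1.41 over the members and 0.01 over all genes. The lower members were *Adamtsl2* at a log2 fold change of -4.99 ± 1.10 (SE, adjusted p = 0.049 in edgeR), *Timp2* at -2.78 ± 0.53 (adjusted p = 0.039), *Adamts5* at -2.09 ± 0.43 (adjusted p = 0.043), *Mmp14* at -1.53 ± 0.28 (adjusted p = 0.038) and *Timp3* at -1.33 ± 0.24 (adjusted p = 0.038).

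*Adamtsl2* had 0.0876, 0.398 and 0.562 TPM in hepatocytes against the liver values above. *Adamts5*, a proteoglycanase (chromosome 16, 85858170 to 85901125), had 0.952, 0.884 and 0.778 TPM in hepatocytes and 6.80, 2.96 and 2.77 in livers. *Mmp14*, the membrane-type MMP that activates pro-MMP2 (chromosome 14, 54431612 to 54441265), had 7.65, 8.87 and 6.48 TPM in hepatocytes and 32.6, 25.9 and 15.3 in livers. The groups did not overlap for any of the 5 genes. Without liver 1, however, 2 members were still called, *Adamtsl2* at -3.32 (adjusted p = 0.029) and *Timp2* at -2.03 (adjusted p = 0.028), and leaving out any other sample left 0 to 2. Of the markers, 6 of 7 stellate and 4 of 8 fibroblast genes tested were also called lower in hepatocytes. So were 3 of 4 cholangiocyte, 3 of 10 macrophage, 2 of 7 endothelial, 1 of 7 sinusoidal endothelial, 1 of 4 smooth muscle and 1 of 2 mesothelium genes tested. Of 8 hepatocyte markers 0 were called. The part of any of these cell types in the lower members was not tested. *Mmp7* was at 0 counts in hepatocytes against 106 in livers, at least 9.92-fold lower with the same floor, with most of those counts in liver 1. *Mmp19* had 76.8, 94.4 and 94.9 TPM in hepatocytes, within 0.31 ± 0.14 (log2 fold change, SE) of liver.

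Cultured spheroids were compared with fresh hepatocyte preparations, the kind of preparation that spheroids are made from. Of 17 members tested, 7 rose and 0 fell, where 8.13% of 12247 genes were called higher and 9.11% lower. DESeq2 and limma-voom also called 0 lower, and 2 members were lower at an unadjusted p under 0.05. The median log2 fold change was 1.32 over the members and 0.01 over all genes. Those that rose were *Timp4*, *Mmp12*, *Mmp13*, *Adamtsl4*, *Adamtsl5*, *Adamts1* and *Mmp24*, and 6 of the 7, all but *Adamtsl5*, kept the call under every alternative tried.

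*Mmp12* had 41.2 and 66.6 TPM in spheroids and 0.967, 0.659 and 1.37 in hepatocytes, a log2 fold change of 5.45 ± 0.37 (SE, adjusted p = 1.53e-04 in edgeR). *Mmp13*, the main interstitial collagenase of the mouse (chromosome 9, 7272514 to 7283333), had 7.10 and 6.32 TPM in spheroids and 0, 0 and 0.336 in hepatocytes. Hepatocytes held 1 count of *Mmp13* and spheroids 46, a ratio per total count of 64.9 with an exact 95% interval of 11.1 to 2619 (adjusted p = 0.0034 in edgeR). Both spheroid samples lay far above all hepatocyte preparations. *Timp4* was at 1 count in hepatocytes and 125 in spheroids, a ratio of 176 with an exact 95% interval of 31.1 to 7021 (adjusted p = 0.0021 in edgeR).

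*Adamts1* had 43.7 and 53.0 TPM in spheroids and 10.96, 8.39 and 10.5 in hepatocytes, a log2 fold change of 1.96 ± 0.22 (SE, adjusted p = 0.0011 in edgeR). *Adamtsl4*, another microfibril-binding protein (chromosome 3, 95676201 to 95687917), had 11.6 and 9.20 TPM in spheroids and 0.500, 1.32 and 0.643 in hepatocytes, with a log2 fold change of 3.30 ± 0.45. *Mmp24*, a membrane-type MMP (chromosome 2, 155775342 to 155818366), had 22.1 and 21.8 TPM in spheroids and 5.38, 5.77 and 7.10 in hepatocytes, with 1.52 ± 0.25. *Adamtsl5*, at 8.37 and 3.58 against 1.19, 1.18 and 0.381 TPM, had 2.30 ± 0.53. The spheroid and hepatocyte values did not overlap for any of these 4 genes.

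Among members too low to be tested, *Mmp27* had 26 counts in spheroids and 3 in hepatocytes, a ratio of 12.2 (exact 95% interval 3.75 to 63.1), *Timp1* 14 and 3, a ratio of 6.58 (1.84 to 35.7), and *Adamts4* 13 and 1, a ratio of 18.3 (2.76 to 780). These intervals cover counting error and not the spread between samples. The inhibitors *Timp2* and *Timp3* had log2 fold changes of -0.05 ± 0.41 and -0.31 ± 0.25 (SE), and neither passed the test. Of the macrophage markers 5 of 10 were called higher in spheroids (*Trem2*, *Cd68*, *C1qc*, *Lyz2* and *C1qb*), and their part in the rise of *Mmp12* and *Mmp13* was not tested.

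Partner genes moved with the spheroids too. The crosslinking enzyme *Lox*, the founding member of the LOXL family, rose by a log2 fold change of 5.14 ± 1.23 (SE, adjusted p = 0.021 in edgeR), with *P4ha2* (2.12) and *Tgm2* (1.42) in a list of 8 tested genes of crosslinking and collagen processing. Of 9 matrix substrates tested, *Nid1*, a basement membrane linker (4.78), *Col4a1* (2.29) and *Spp1*, osteopontin (2.06), rose. *Adam8* rose by 4.85 and *Ctss* by 1.53, and in the plasminogen system *Plaur* (3.51) and *Plat* (2.28). The regulators *Lrp1*, an uptake receptor for MMPs (-2.49), and *Tfpi2* (-1.31) fell.

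The sum of the 5 members in the chromosome 9 cluster followed the same groups. It was 52.5 and 79.5 TPM in the spheroid samples, 1.28, 1.02 and 2.11 in hepatocytes, and 77.9, 4.15 and 3.11 in livers 1, 2 and 3. Explants 1, 2, 4, 5 and 6 had 21.6, 36.3, 23.4, 12.6 and 26.1 TPM, and irises 9.07, 3.89 and 5.14. Every explant lay above every iris, below both spheroid samples and below liver 1. The gene that made up the sum differed, with *Mmp12* at 53.9 ± 17.99 TPM (SD, n = 2) in spheroids and *Mmp7* at 67.2 TPM in liver 1.

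The authors removed the contribution of iris from the explants by subtracting the mean iris TPM times the iris share and dividing by the rest. Explants corrected by this formula were tested against livers with limma on log2(TPM + 1), which understates changes of low genes. All explants had the same iris mean subtracted, so error in that mean is common to them and lies outside the SEs and p-values. No iris was left out in this comparison or in the one with spheroids. Of the 37 members, 10 were called higher in corrected explants, where 12.2% of 20702 genes were, and 1 lower, where 3.16% were. The median log2 fold change was 1.49 over the members and 0.57 over all genes. Against spheroids, 9 were called higher, where 4.91% of genes were, and 2 lower, where 1.28% were, with medians of 1.52 and 0.46. The 2 comparisons share the 5 explants.

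The members called higher than liver were *Adamts1* (5.39 ± 0.57 log2, SE), *Loxl1* (5.12 ± 0.49), *Loxl2* (3.83 ± 0.51), *Adamts4* (3.70 ± 0.46), *Adamtsl4* (3.52 ± 0.61), *Adamts5* (3.49 ± 0.84), *Mmp2* (2.80 ± 0.73), *Loxl3* (2.06 ± 0.34), *Mmp24* (1.28 ± 0.35) and *Mmp14* (1.24 ± 0.32). *Loxl1* stood at 284, 138, 196, 246 and 96.4 corrected TPM in explants 1, 2, 4, 5 and 6, *Adamts1* at 1406, 655, 1036, 424 and 209, and *Loxl2* at 51.4, 19.8, 64.3, 25.3 and 46.8. All lay above every liver. Explants 1 and 4, which have the highest iris shares, were the highest for *Adamts1*. *Mmp14* was at 61.6, 74.6, 41.9, 48.1 and 64.0 corrected TPM and *Mmp24* at 18.3, 20.6, 28.4, 30.98 and 15.8. Without liver 1, *Adamts5* (adjusted p = 0.058) and *Mmp24* (0.089) were no longer called, the other 8 were, and *Mmp7* was added, at 3.68 ± 0.69 (adjusted p = 0.021 in limma). Over all 15 alternatives *Mmp2* lost its call in 9, among them leaving out any explant, liver 2 or liver 3, *Mmp24* in 8, *Adamts5* in 7 and *Mmp14* in 6.

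Against spheroids the largest differences were *Loxl1* at 6.83 ± 0.46 (log2, SE), *Mmp2* at 5.22 ± 0.39 and *Adamts5* at 4.80 ± 1.01, all with adjusted p of 0.038 or less in limma. *Mmp2* had 62.5, 65.4, 53.1, 44.1 and 70.8 corrected TPM in explants and 1.00 and 0.265 in spheroids, and *Adamts5* had 127, 36.2, 150, 61.4 and 9.99 against 0.752 and 1.19. *Mmp7* (4.00 ± 0.76), *Adamts1* (3.64 ± 0.70), *Loxl2* (3.54 ± 0.58), *Adamts4* (2.84 ± 0.56), *Loxl3* (2.23 ± 0.40) and *Mmp14* (1.76 ± 0.36) were also called higher. *Mmp12* and *Mmp13*, which rose in culture, had log2 fold changes of -1.38 ± 0.90 and -0.08 ± 0.73 in corrected explants against spheroids, and neither passed the test. Without spheroid sample 1 or 2, 2 members were called higher, without explant 2, 4, and without explant 5, 5.

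*Timp3* was called lower than liver, at -4.64 ± 0.63 (log2, SE, adjusted p = 0.0030 in limma), and lower than spheroids, at -3.29 ± 0.73 (adjusted p = 0.045). Its corrected values were 0 in explants 1, 2, 4 and 5 and 3.12 TPM in explant 6, since the iris subtracted was at least what the explants held. Before the subtraction *Timp3* was higher than liver by 3.55 and higher than spheroids by 4.90 (log2), so its direction rests on the correction. *Timp4* was listed at 0 in all 5 corrected explants and was called lower than spheroids. *Timp2* had 48.4, 57.0, 0, 16.5 and 41.7 corrected TPM and *Timp1* 0, 190, 68.5, 114 and 102, and neither passed either test. The log2 fold change of *Timp1* was 2.78 against liver, 3.76 ± 1.97 (SE) without liver 1, and 2.71 against spheroids. No inhibitor was called higher in corrected explants, where 12.2% of all genes were against liver and 4.91% against spheroids. With so few inhibitors, that count is near those shares.

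*Mmp15* and *Mmp19*, the MMPs of liver, lay at liver level after the correction. *Mmp15* had 30.6, 24.3, 23.2, 27.8 and 31.4 corrected TPM, a log2 fold change of 0.05 ± 0.30 (SE) against liver, and *Mmp19* had 80.2, 76.0, 91.9, 85.2 and 80.2, a log2 fold change of 0.06 ± 0.18. All 5 corrected values of *Mmp15* fell within the range of the livers, as did 2 of *Mmp19*, while explants 4 and 5 lay above that range and explant 2 below it. For *Mmp15* that range rests on liver 1, the lowest at 19.1 TPM. Explants 2 and 4 lay below livers 2 and 3, which had 36.6 and 26.1 TPM of *Mmp15*. Without liver 1 the log2 fold change was -0.18 ± 0.31 (SE) for *Mmp15* and 0.07 ± 0.20 for *Mmp19*.

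Markers of the host tissue also remained after the correction. Of 7 smooth muscle markers, *Lmod1* (5.76), *Cnn1* (4.87), *Actg2* (4.23) and *Des* (3.83) were called higher in corrected explants than in liver (log2 fold change), and of 7 tested markers of iris and ciliary epithelium *Otx1* (4.81) and *Pax6* (3.77) were. Fibroblast markers were called higher in 3 of 8 (*Col1a1*, *Fbln1* and *Col3a1*) and macrophage markers in 7 of 10. The part of remaining iris RNA, or of such cells, in the values of *Loxl1*, *Adamts1*, *Mmp2* and the other members was not tested.

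**Figure D5:**
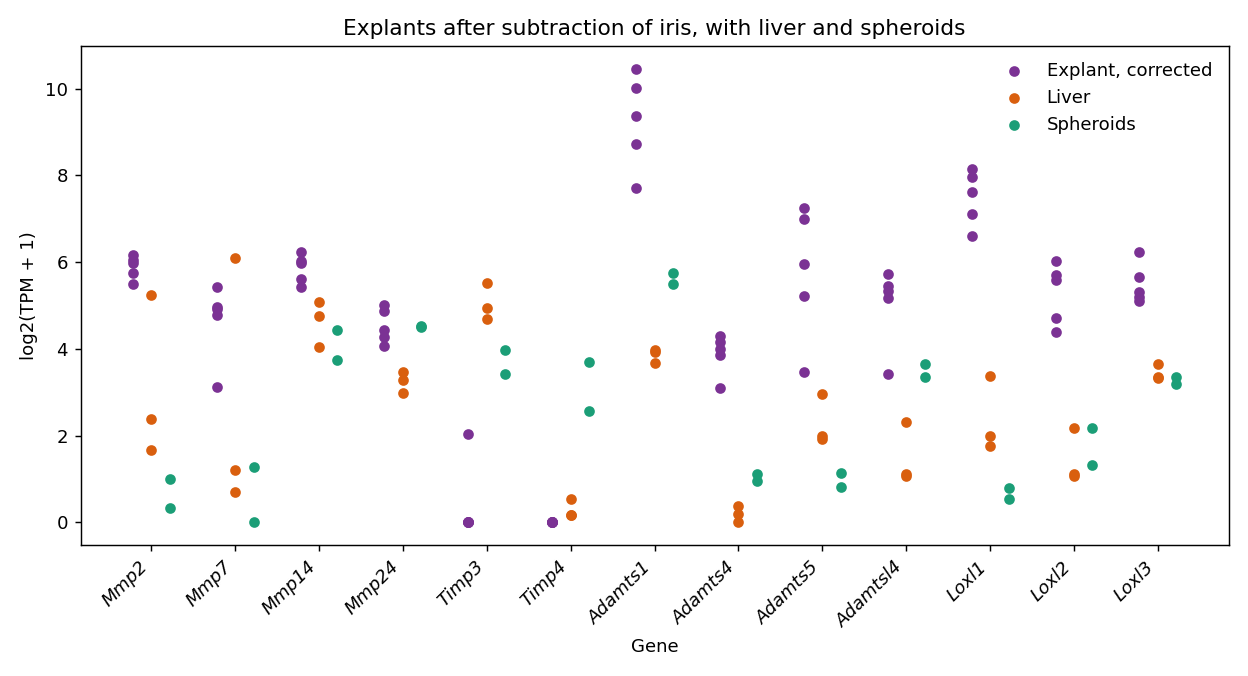
For the 13 members called in either comparison, points show log2(TPM + 1) per sample, with explants after subtraction of iris in purple, livers in orange and spheroids in green. *Adamts1*, *Adamts4*, *Loxl1*, *Loxl2* and *Loxl3* have all explants above all livers and spheroids, *Timp3* is at 0 in 4 of 5 explants, and *Timp4* is at 0 in all 5.

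Explants were also compared without any subtraction. Of the 37 members 2, *Adamts4* and *Loxl1*, were higher in TPM in every explant than in every sample of the other 4 groups, where 1.48% of 20702 genes were. Without liver 1 these were 4, with *Mmp2* and *Mmp7* added, where 1.9% of genes were. Each explant was also divided by the TPM that its iris share of mean iris and the rest of mean liver would give. The ratio was 2.28, 2.27, 1.94, 2.92 and 2.27 for *Loxl1* in explants 1, 2, 4, 5 and 6, and 2.06, 2.04, 1.83, 1.55 and 1.46 for *Adamts1*. It was 0.979 to 1.06 for *Mmp19*, 0.893 to 1.13 for *Mmp15* (0.807 to 1.002 with livers 2 and 3 alone) and 0.877 to 0.977 for *Timp3*. Over the members, 15 were above 1 in all 5 explants and 4 below 1 in all 5, where 25.3% and 14.4% of 19829 genes were. With livers 2 and 3 alone these were 16 and 3 members. A ratio above 1 is the same condition as a corrected value above the mean of the livers used. These ratios therefore restate the correction above and are no separate support. By them *Loxl1* and *Adamts1* exceeded this mixture in all 5 explants, and *Timp3* lay below it in all 5.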

How the data were processed

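RNA of 16 samples was sequenced by the authors as 48 Smart-seq3 libraries. Per the labels and methods, reads were aligned with TopHat2 to mm10, duplicates were removed, and reads were assigned to exons with featureCounts 1.4.6-p5. The authors deposited counts per library and per sample, without regard to strand, and TPM calculated from these counts. Recalculated TPM equalled the deposited ones, and counts per sample equalled the sum of the 3 libraries. The authors also deposited iris-corrected TPM of the explants, held here as a score. In the column of explant 4 the published formula holds for only 16.5% of genes, so corrected values were recomputed for all explants with the iris shares solved from the deposited tables, and values below 0 were set to 0. The table keeps genes with a mean above 1 TPM over its 13 columns, which hold no iris. The 8 columns of that table that repeat other samples were not used. ERCC controls took 418 counts in all and were left out.

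In R 4.3.3, counts went into edgeR 4.0.16 with TMM scaling, the filterByExpr minimum and the quasi-likelihood test, and corrected TPM with limma 3.58.1 with trend on log2(TPM + 1). Only the groups compared entered a fit, and p-values were adjusted by Benjamini-Hochberg over all genes tested. Ratios with 1 to 3 counts in a group carry exact 95% intervals. Scripts were tested on simulated data. Alternatives were DESeq2 1.42.0, limma-voom, other size factors, no filter, a fit of all 5 groups, no fold limit and a replicate block. Further ones were a minimum mean of 10 TPM, pseudocount 0.1, explant 4 as deposited, TPM before correction and iris shares by non-negative least squares. Each sample of the groups compared was also left out in turn, so no iris was left out of the corrected comparisons.

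The members, the lists of partner genes and markers and all tests were chosen with earlier results of these data known. Values per sample are given for the 4 *Timp* and 4 *Loxl* genes, for up to 6 called members per comparison whose groups do not overlap (those at the 3 highest and 3 lowest fold changes), and for the 3 most abundant members of each group. *Mmp2*, *Mmp7* and *Mmp23* in liver 1, and the untested members with ratios, were chosen after their values were seen. All 37 members were found in GENCODE M21 as protein-coding, 25 with the same coordinates, and positions are those of the count files. Technical libraries differed by a median of 1.32 to 1.77 times the variance of counting, samples of a group by 3.86 to 13.4 times. Promoters are from RefSeq (GRCm38.p6). Protein sequences were not used here. Some partner genes are not reported here.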

Additional observations from a re-analysis of the deposited data

Results flagged for a closer look

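*Adamts13*, the proteinase of von Willebrand factor, had an explant far from the others: explant 6 was at 0.388 TPM, while the other 4 explants were at 0 to 0.111 TPM. The gap to the nearest explant was 0.715 of the whole range, above the limit of 0.71 for 5 samples. These are 1, 0, 1, 1 and 4 counts in explants 1, 2, 4, 5 and 6, near the floor of 3 counts, and the irises had 0 counts. The 37 members were each examined in the explants and 1 was flagged, where chance flags about 1 group in 20.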

How the results depend on the processing

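Of 877 results for called members under an alternative, 725 kept direction and call, 150 lost the call and 2 reversed. Both reversals are *Timp3* in corrected explants, at 3.55 against liver and 4.90 against spheroids with TPM before correction. Of 172 member counts, 131 stayed within 1.5 times and 41 moved. Between explants and irises, 4 members higher became 2 with the replicate block and 1 to 4 on leaving out a sample, and 0 lower became 3 without the fold limit. Between hepatocytes and livers, 5 lower became 0 with limma-voom, 14 without the filter, 10 in a fit of all 5 groups and 0 to 2 on leaving out a sample. Corrected against liver, 10 higher became 5 with explant 4 as deposited, 23 before correction, 0 with the replicate block and 6 to 11 on leaving out a sample, and 1 lower became 2 before correction, 0 with the block and 1 to 2. Corrected against spheroids, 9 higher became 4 with explant 4 as deposited, 22 before correction, 0 with the block and 2 to 9, and 2 lower became 1 with pseudocount 0.1, 0 at a mean of at least 10 TPM, 1 with explant 4 as deposited, 0 with the block and 1 to 2. The cause was not tested. In the replicate block, explants share only the numbers 1 and 2 with irises, livers and spheroids. Samples of other numbers therefore do not enter its fold changes between explants and these groups.

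Over all genes, with every sample kept, counts over 1.5 times apart from the main ones were these. Between explants and irises limma-voom called 541 higher (1032 with edgeR), and lower were 86 by library size, 22 with the block and 460 without the fold limit (53). Between irises and livers 1973 were lower by library size and 5334 without the fold limit (3422). Between hepatocytes and livers, higher were 117 with DESeq2, 9 with limma-voom, 191 without the filter, 217 in a fit of all groups and 96 without the fold limit (50), and lower 530, 11, 1014 and 923 in the first 4 of these (283). In spheroids 1531 were higher by library size and 1526 without the fold limit (996). Corrected against liver, explant 4 as deposited gave 1150 higher and 309 lower, and TPM before correction 7394 and 1606 (2522 and 655). Against spheroids these were 399 and 105, and 6343 and 1183 (1017 and 265), with 138 lower at a mean of at least 10 TPM. The block called 0 genes in both corrected comparisons, where so few samples enter its fold changes that this count cannot measure how stable the calls are. On leaving out a sample, higher and lower ran from 554 to 1199 and 26 to 71 between explants and irises (554, 604 and 575 higher without iris 1, 2 and 3), 4 to 110 and 4 to 338 between hepatocytes and livers, 952 to 3394 and 254 to 803 for corrected explants against liver, and 201 to 1223 and 166 to 336 against spheroids. Same-numbered samples correlated at -0.133 to 0.135, so the numbers were not taken to pair samples.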

Other observations

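Among members outside the comparisons described, explants varied widely in *Mmp3*, stromelysin-1 (chromosome 9, 7445822 to 7455972), at 8.48, 10.8, 0.814, 1.91 and 1.33 TPM in explants 1, 2, 4, 5 and 6, with irises at 4.67, 0.714 and 2.02. *Adamtsl2* had 0.545, 5.12, 1.10, 1.55 and 3.95 TPM in explants and 0.526, 1.04 and 1.14 in irises, and *Adamtsl3* 0.774, 4.04, 1.45, 2.05 and 0.309 in explants and 2.02, 1.49 and 1.10 in irises. None of the 3 passed the test between explants and irises. These genes were chosen after their values were seen.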
